A study of Mus musculus with 16 samples.

Results

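The 43 genes described here are the core histone genes of the 4 histone gene clusters of the mouse, as far as they are on the array: the gene names that start with Hist1h2, Hist1h3, Hist1h4, Hist2h, Hist3h or Hist4h, of 34832 gene names in all. The members were chosen by name, and each gene is read by 1 probe, which was chosen by its mean log2 signal over the 16 arrays (the brightest of the gene's probes), so the level of a member is a description and is not tested. No comparison between groups entered that rule. By type, 14 of the genes encode H2A, 12 encode H2B (1 of them, Hist3h2bb-ps, is named as a pseudogene), 8 encode H3 and 9 encode H4. By cluster, 30 are Hist1 genes on chromosome 13, 9 are Hist2 genes on chromosome 3, 3 are Hist3 genes on chromosome 11, and Hist4h4 lies alone on chromosome 6.

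The cells were primary cells of the lung epithelium of C57BL/6 mice, labelled as alveolar type II cells, which make surfactant; no age is given. They were kept in normoxia (21% O2) or in hyperoxia (85% O2), and total RNA was taken after 6 h or 24 h. There were 4 arrays in each of the 4 groups, numbered 1 to 4, and nothing in the labels says whether these came from separate animals or isolations. The p-values therefore measure the spread between these samples, which may be technical. A level below is the log2 signal minus the 75th percentile of the same array, and a difference is between group means on that scale.

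Core histones form the spool around which DNA is wound: H3 and H4 make a central tetramer, and a pair of H2A-H2B dimers is added to it. The clustered genes are the replication-dependent ones, whose transcription and mRNA stability are highest while DNA is being copied in S phase. Their usual mRNAs have no introns and no poly(A) tail and end in a short stem-loop, which the stem-loop binding protein holds for processing and translation. Several of these genes are also known to give longer transcripts that run past the stem-loop and carry a poly(A) tail. The labelling kit named in the labels copies RNA from a primer that anneals to poly(A), so how well each form of transcript was copied bears on every level below and was not measured.

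Because the members differ in where the probe lies, the probes are shown first. In 7 members the probe holds CTTTTCA, the loop of the stem-loop with adjoining stem bases, called the loop core here. Up to 30 bases around it are given 5′ to 3′ with that core in capitals. The first 5 have no more than 11 probe bases after the loop, and the last 2 reach 43 and 53 bases past it.
Hist2h2bb: ccaaaaggctCTTTTCAgagccacttta
Hist1h2ab: aacaaaggctCTTTTCA
Hist1h3a: accaaaggctCTTTTCAgagccaca
Hist1h3i: acaaaaggctCTTTTCAgagccccctc
Hist1h4m: actaaaggccCTTTTCAgggccatccaa
Hist2h2aa1: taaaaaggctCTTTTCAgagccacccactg
Hist1h2ae: CTTTTCAgagccattcactt

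The other probes fell into 2 kinds. In 26 members the probe has no loop core and starts before base 500 of its transcript, per the array's annotation. In 10 members it has none and starts at base 500 or later. Hist1h3g is counted among the 26, although its probe has CTTCTTA between GGCT and GAGCC, a stem-loop with another loop. Within the first kind, several H2A probes are near copies of each other, so their signals are not independent. Of 60 bases, the probes of Hist1h2an and Hist1h2af differ at 5, those of Hist1h2an and Hist1h2ak at 6, and those of Hist1h2an and Hist2h2aa2 at 8; over the 48 and 54 bases that can be laid side by side, Hist1h2ag differs from Hist1h2an at 2 and Hist1h2ah at 3. Differences from the Hist1h2an probe are in capitals. In the array's mouse build mm9, the Hist1h2an probe lies at chr13:21878695-21878754 on the minus strand, Hist1h2af at chr13:23626113-23626172 (plus), Hist1h2ak at chr13:21845304-21845363 (minus), Hist2h2aa2 at chr3:96049837-96049896 (plus) and Hist1h2ah at chr13:22127035-22127094 (minus). The place given for the Hist2h2aa2 probe is just before that of the Hist2h2aa1 probe (chr3:96049949-96050008, plus). RefSeq has the Hist2h2aa2 gene on the minus strand and Hist2h2aa1 on the plus strand, so which of these genes the probe reads is uncertain.
Hist1h2an: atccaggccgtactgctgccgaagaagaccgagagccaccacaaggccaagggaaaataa
Hist1h2ag: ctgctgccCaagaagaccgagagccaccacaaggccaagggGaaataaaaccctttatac
Hist1h2af: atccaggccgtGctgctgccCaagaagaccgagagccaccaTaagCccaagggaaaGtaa
Hist1h2ak: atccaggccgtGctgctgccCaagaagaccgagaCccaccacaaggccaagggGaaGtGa
Hist2h2aa2: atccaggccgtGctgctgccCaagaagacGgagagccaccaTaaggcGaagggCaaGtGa
Hist1h2ah: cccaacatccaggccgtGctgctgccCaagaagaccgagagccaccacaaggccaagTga

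Each array had 55681 probes after averaging, of which 53.6% to 69.0% were well above background, and no spot was saturated. The slides were divided by time, 6 h on 1 and 24 h on the other, so that these cannot be told apart. On both slides the normoxia arrays filled 1 row and the hyperoxia arrays the other, so oxygen and slide row cannot be told apart either. Of 10 markers of type II cells, 9 were well above background on at least 1 of the 4 arrays of every group, while Slc34a2 was on none. The summed level of the list at 24 h ran from 5.30 to 5.49 in normoxia and, in hyperoxia, from 4.87 to 5.18. All 7 markers of fibroblasts and smooth muscle were well above background by the same count. Their sum at 24 h ran from 10.60 to 10.80 in normoxia and, in hyperoxia, from 10.47 to 10.59. The arrays of the 2 oxygen levels thus did not overlap at 24 h in either sum, although singly 4 of 9 type II markers fell, 1 rose and no fibroblast marker passed. Lists for type I, endothelial, macrophage, lymphocyte and neutrophil cells overlapped, and the club and ciliated cell list stood at 0.72 to 1.11 in normoxia and 1.14 to 1.34 in hyperoxia. The part of these shifts in the results below was not tested. In such bulk RNA, fewer cells of a type and less RNA per cell cannot be told apart.

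The first question was how the core histone genes differed between hyperoxia and normoxia at 24 h. They split by type: most H4 genes and most H2A genes were lower in hyperoxia, most H2B genes were higher, and 4 of the 8 H3 genes were lower. Of the 43 members, 20 fell and 12 rose (limma over all 25419 genes tested, Benjamini-Hochberg adjusted p below 0.05), which is 46.5% and 27.9% of the members against 12.8% of all genes lower and 15.5% higher. All 43 passed the filter on dim probes (well above background on 3 or more of the 4 arrays of a group), although Hist1h2ac and Hist1h2bq passed only through hyperoxia at 24 h, the group where they were highest. A member that passes in this way can hardly be seen to fall; without these, 20 of 41 fell and 11 rose, a count added after the data were seen. The median difference of the members was -0.11, against 0.01 over all genes tested. Every hyperoxia array was below every normoxia array in 18 members and above it in 12, where 15.3% and 17.9% of all genes did so.

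**Figure D1:**
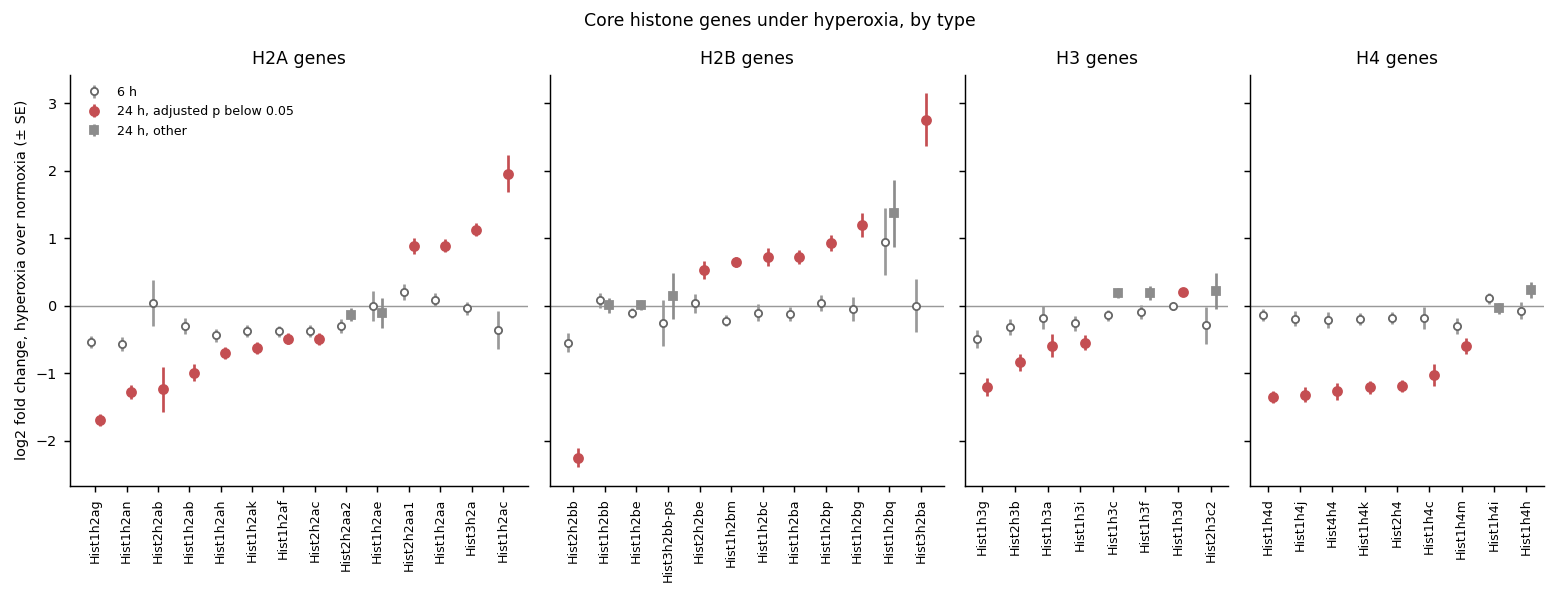
Log2 fold change of hyperoxia over normoxia for each of the 43 members, by histone type and sorted by the 24 h value. Open circles give 6 h, red circles give 24 h with an adjusted p below 0.05 and grey squares the other 24 h values, each ± SE from limma with 4 arrays a group. The 24 h values run from -2.25 for Hist2h2bb to 2.76 for Hist3h2ba, while the 6 h values lie between -0.57 and 0.95.

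Among the 14 H2A genes, 8 fell, 4 rose and 2 did not pass the test, with a median of -0.49. The largest fall was read by the Hist1h2ag probe. The array's annotation gives that probe a span far longer than its 60 bases, so its position is not given and its identity is uncertain; 46 of 48 aligned bases match the Hist1h2an probe. The Hist1h2ag levels were 7.20, 6.83, 6.74 and 7.10 in normoxia and 5.28, 5.22, 5.26 and 5.33 in hyperoxia at 24 h, and the groups were far apart. It fell by 1.69 ± 0.09 (SE), a 3.23-fold drop with adjusted p = 4.08e-09. Hist1h2an, whose probe is nearly the same, read 6.76, 6.38, 6.24 and 6.71 in normoxia and 5.26, 5.19, 5.21 and 5.33 in hyperoxia, and fell by 1.28 ± 0.10 (SE) (adjusted p = 3.18e-07). Here too every hyperoxia array was lower. Hist1h2ah, named because its probe was the brightest of its type (a statement on probe signal and not on the amount of mRNA), moved less. Its levels were 7.49, 7.21, 7.05 and 7.47 in normoxia and 6.58, 6.55, 6.62 and 6.68 in hyperoxia, and it fell by 0.70 ± 0.09 (SE) (adjusted p = 3.97e-05) with no overlap between the groups. The other probes of this near-identical set gave falls between 0.49 and 0.62 in Hist1h2af, Hist1h2ak and the related Hist2h2ac, while Hist2h2aa2 stood at -0.13 ± 0.10 (SE) and did not pass (adjusted p = 0.394). Whether that last probe reads Hist2h2aa2 or Hist2h2aa1 is uncertain, by its position given above. Probes that differ by a few bases thus gave values from -1.69 to -0.13, and how the genes share signal among them was not tested.

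Hist1h2ab, read at the stem-loop, fell by 0.99 ± 0.12 (SE; adjusted p = 2.64e-05). Hist2h2ab was near the limit of detection. Its levels were -4.35, -6.10, -5.38 and -4.93 in normoxia, where 2 of 4 arrays were well above background, and -5.86, -6.93, -6.88 and -6.03 in hyperoxia, where none was. The arrays overlapped, and the fitted fall of 1.24 ± 0.34 (adjusted p = 0.0135) comes down to at least 1.41-fold when the hyperoxia arrays are set no lower than the dimmest signal well above background on the same array. With normexp the difference was -0.35, and the call was lost when the 8 arrays of 24 h were fitted alone (adjusted p = 0.0552).

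The 4 H2A genes called higher were Hist1h2ac, Hist3h2a, Hist1h2aa and Hist2h2aa1. Hist1h2ac read -5.18, -5.20, -5.10 and -5.33 in normoxia, with 2 of 4 arrays well above background, and -3.34, -3.71, -3.18 and -2.75 in hyperoxia, with all 4. Every hyperoxia array was higher. The difference of 1.96 ± 0.28 (SE; adjusted p = 9.35e-05) is against a group near background, was 0.67 with normexp, another background correction, and is given as a description because only hyperoxia at 24 h carried the probe past the filter. Hist3h2a, a gene of the small Hist3 cluster, had levels of 2.39, 2.26, 2.45 and 2.28 in normoxia and 3.39, 3.37, 3.51 and 3.64 in hyperoxia. Both groups were tight and did not overlap, with a rise of 1.13 ± 0.09 (SE; adjusted p = 4.39e-07). Hist1h2aa, an H2A variant known from testis, rose by 0.89 ± 0.10 (adjusted p = 7.47e-06), and Hist2h2aa1 by 0.89 ± 0.12 (adjusted p = 4.24e-05).

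Of the 12 H2B genes, 7 rose, Hist2h2bb alone fell and 4 did not pass, with a median of 0.68. Hist2h2bb had the largest fall of all members. Its levels were -0.01, -0.79, -0.40 and -0.12 in normoxia and -2.62, -2.64, -2.62 and -2.42 in hyperoxia. It fell by 2.25 ± 0.14 (SE), or 4.74-fold (adjusted p = 2.03e-08), and no arrays overlapped. The mean with its second, dim probe gave -1.25. Hist3h2ba had the largest fitted rise, from -7.25, -5.13, -6.51 and -5.67 in normoxia, where 1 of 4 arrays was well above background, to -3.84, -3.53, -2.89 and -3.24 in hyperoxia, where all 4 were. The rise was 2.76 ± 0.39 (SE; adjusted p = 8.98e-05); the normoxia arrays were widely spread but all lay lower. Its size is not settled: with normexp the rise was 0.62, below the 1.07 of Hist3h2a.

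Hist1h2bg read -4.36, -4.54, -3.51 and -3.83 in normoxia and -2.98, -2.89, -2.82 and -2.74 in hyperoxia. It rose by 1.20 ± 0.18 (adjusted p = 1.34e-04) with no overlap, and by 0.51 with normexp. Hist1h2bc, with the brightest H2B probe, read 5.12, 4.71, 5.13 and 5.04 in normoxia and 5.69, 5.54, 5.69 and 5.94 in hyperoxia, and rose by 0.72 ± 0.13 (adjusted p = 6.41e-04), again with the groups apart. The other 4 that rose were Hist1h2bp (0.93), the testis variant Hist1h2ba (0.72), Hist1h2bm (0.65) and Hist2h2be (0.53); with normexp Hist1h2bp was at 0.32 and Hist2h2be at 0.33. Hist1h2bq differed by 1.37 ± 0.50 and did not pass (adjusted p = 0.0553); with the replicate number as a block within each time, its adjusted p was 0.0418. Hist1h2bb and Hist1h2be each differed by 0.01, with SEs of 0.11 and 0.07.

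Of the 8 H3 genes, 4 fell, Hist1h3d rose and 3 did not pass, with a median of -0.18. Hist1h3g read -2.18, -2.46, -2.61 and -2.08 in normoxia and -3.36, -3.40, -3.77 and -3.59 in hyperoxia. It fell by 1.20 ± 0.13 (SE) (adjusted p = 6.57e-06), with all hyperoxia arrays lower and a value of -0.79 with normexp. Hist2h3b read 1.23, 0.75, 0.93 and 1.22 in normoxia and 0.09, -0.07, 0.32 and 0.41 in hyperoxia, a fall of 0.84 ± 0.12 (adjusted p = 1.19e-04) without overlap. Hist1h3a read -2.87, -3.14, -3.35 and -2.58 in normoxia and -3.83, -3.68, -3.69 and -3.10 in hyperoxia. These arrays overlapped, and the fall of 0.59 ± 0.17 (adjusted p = 0.0195) lost its call without any 1 of normoxia arrays 1 and 4 and hyperoxia arrays 1, 2 and 3 (adjusted p from 0.0504 to 0.0637) and when the 24 h arrays were fitted alone (0.0701). With normexp it was -0.35.

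Hist1h3d, with the brightest H3 probe, had little spread, at 5.14, 5.17, 5.07 and 5.16 in normoxia and 5.31, 5.34, 5.33 and 5.39 in hyperoxia. Its rise of 0.21 ± 0.05 (adjusted p = 0.00874) was the smallest of any called member, and the groups did not overlap. Hist1h3i fell by 0.55, and Hist1h3c, Hist1h3f and Hist2h3c2 differed by 0.19, 0.19 and 0.22 and did not pass. No position could be read from the array's annotation for the Hist2h3c2 probe, so its identity is uncertain.

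The H4 genes were the most uniform: 7 of 9 fell, none rose at an adjusted p below 0.05 (no H4 gene outside those 7 had an unadjusted p below 0.05), and the median was -1.19. Some of their probes share sequence, so these values are not independent. The Hist1h4d and Hist1h4j probes match at 38 of 40 aligned bases. The Hist1h4c probe matches that of Hist1h4d at 45 of 52 and that of Hist1h4j at 41 of 48. Hist1h4d read 4.47, 4.02, 4.16 and 4.40 in normoxia and 2.88, 2.86, 2.91 and 3.01 in hyperoxia. It fell by 1.35 ± 0.09 (SE), or 2.55-fold (adjusted p = 6.22e-08), and the groups were well apart. Hist1h4j read 0.97, 0.52, 0.71 and 0.91 and -0.69, -0.63, -0.53 and -0.31 in the same order and fell by 1.32 ± 0.11 (SE) (adjusted p = 3.68e-07). Hist4h4, which sits outside the larger clusters, read 2.80, 2.38, 2.62 and 2.80 in normoxia and 1.18, 1.20, 1.46 and 1.67 in hyperoxia, a fall of 1.27 ± 0.12 (adjusted p = 1.78e-06). Neither gene's arrays overlapped between the groups, and the mean of Hist4h4 with its second probe, which was not well above background on any array, gave -0.82.

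Hist1h4k, with the brightest H4 probe, read 5.47, 5.11, 5.31 and 5.47 in normoxia and 4.04, 4.01, 4.18 and 4.28 in hyperoxia, and fell by 1.21 ± 0.09 (SE) (adjusted p = 1.17e-07). The arrays were again apart. Hist2h4 fell by 1.19, Hist1h4c by 1.03 and Hist1h4m by 0.60. Genes on 3 chromosomes thus took part in falls of more than 1 on the log2 scale. Hist1h4h (0.23 ± 0.12) and Hist1h4i (-0.04 ± 0.08) did not pass. The brightest Hist1h4i probe is listed as unmapped in the array's annotation, so its identity is uncertain.

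**Figure D2:**
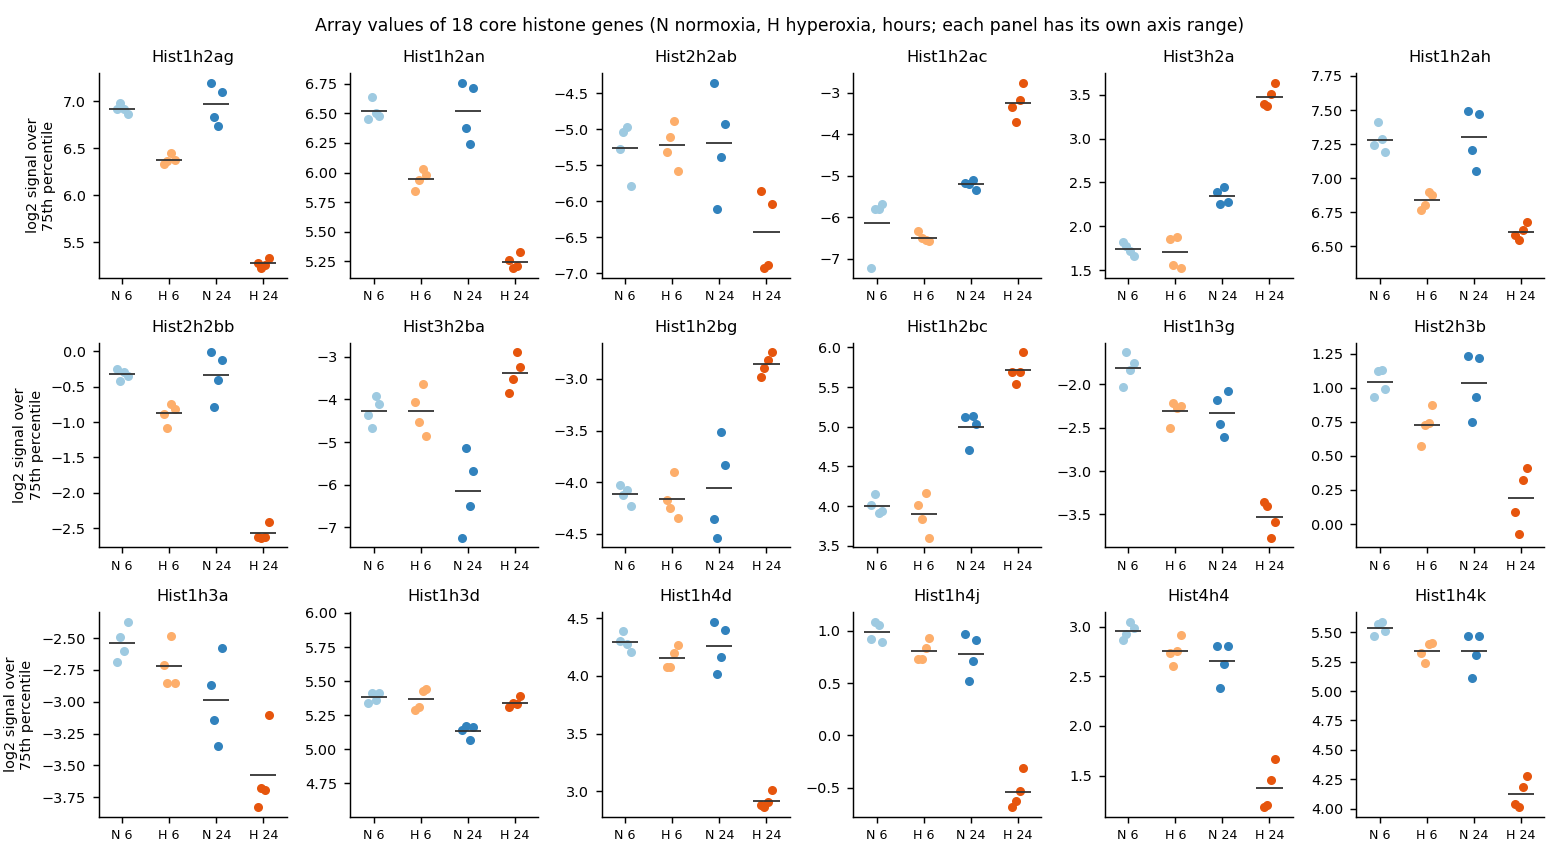
Level of 18 members on every array (log2 signal over the 75th percentile of the array), with normoxia (N) and hyperoxia (H) at 6 and 24 h. Points are the 4 arrays of a group and bars their mean, and each panel has its own range. In Hist1h2ag the 4 hyperoxia arrays at 24 h sit between 5.22 and 5.33, below the 4 normoxia arrays at 6.74 to 7.20; in Hist3h2a they sit between 3.37 and 3.64, above 2.26 to 2.45.

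For 6 members the array has more than 1 probe, which allows a look within a gene. The second Hist1h2ak probe, at the start of its transcript, fell by 1.84 ± 0.12, against 0.62 ± 0.09 for the brighter probe near the end. Both passed (adjusted p = 4.93e-08 and 1.10e-04 when every probe was tested singly), so the size of the Hist1h2ak fall differs between its probes (-1.23 for their mean). Both Hist1h4k probes fell, by 1.21 and 1.39. The other 2 Hist1h4i probes stood at -0.08 (adjusted p = 0.67) and, 574 bases into the transcript, at 0.42 (adjusted p = 0.0668). The second probes of Hist2h2bb, Hist2h4 and Hist4h4 were well above background on 1, 2 and 0 of the 16 arrays.

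The direction at 24 h went along with where the probe lies. Of the 10 members read at base 500 or later without the loop, 7 rose, none fell (by limma, adjusted p below 0.05) and 3 did not pass, with a median of 1.03; 8 of the 10 had an unadjusted p below 0.05. The size of these rises depends on the background correction: with normexp 7 of the 10 rose and none fell (limma, adjusted p below 0.05), with a median of 0.42. Without Hist1h2ac and Hist1h2bq, 6 of 8 rose, with a median of 0.82. Of the 26 read before base 500, 15 fell, 4 rose and 7 did not pass, with a median of -0.56. The 5 whose probe ends within 11 bases of the loop shown above all fell, with log2 differences of -2.25 (Hist2h2bb), -0.99 (Hist1h2ab), -0.60 (Hist1h4m), -0.59 (Hist1h3a) and -0.55 (Hist1h3i). Hist2h2aa1, whose probe runs 43 bases past the loop, rose by 0.89. Hist1h2ae, with 53 bases past it, differed by -0.11 (adjusted p = 0.777).

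Type and probe position are tied together in this set. Of the 12 H2B genes 7 are read at base 500 or later, of the 14 H2A genes 2, of the 8 H3 genes 1, and of the 9 H4 genes none, so the 2 cannot be told apart for most members. Within H2A, 7 of the 9 genes read early fell; of those read late, Hist3h2a rose, and Hist1h2ac was higher but passed the filter only through hyperoxia at 24 h. Within H2B, 2 of the 4 read early rose (Hist1h2ba and Hist1h2bm), as did 5 of the 7 read late. These groupings were made with the results known and are a description without a test.

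**Figure D3:**
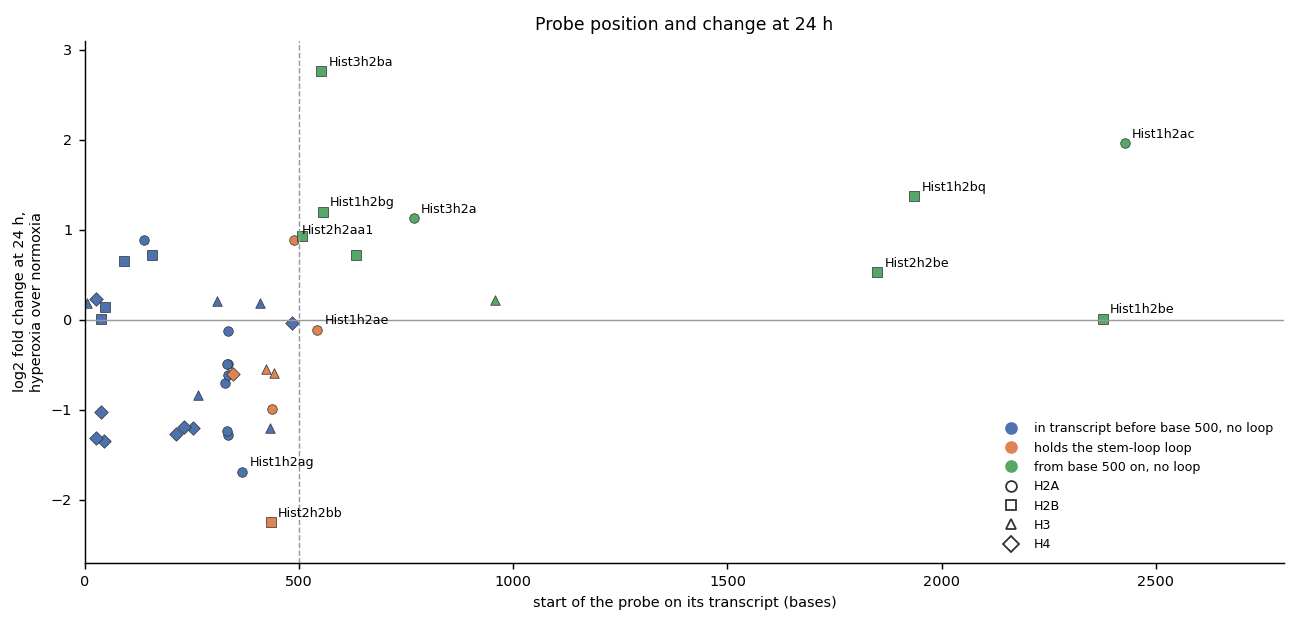
Log2 fold change of hyperoxia over normoxia at 24 h against the base of the transcript at which the probe starts, for the 43 members. Marker shape gives the histone type and colour the probe's position, and the dashed line marks base 500. To its right, Hist1h2ae, which holds the loop, is at -0.11 and the green points run from 0.01 to 2.76; the orange points, which hold the loop, run from -2.25 to 0.89.

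Many H2A and H2B genes lie head to head, transcribed away from a shared stretch of DNA. Among the members there were 6 such neighbours within 1000 bases, by the order of genes in the RefSeq annotation and the strands on the array. Hist1h2an fell by 1.28 while its partner Hist1h2bp rose by 0.93, and Hist2h2ac fell by 0.49 while Hist2h2be rose by 0.53. In both cases the H2B gene was read at base 500 or later and the H2A gene before it. Hist1h2aa and Hist1h2ba rose together, by 0.89 and 0.72, while Hist1h2bc rose by 0.72 beside Hist1h2ac, whose 1.96 carries the limit given above. Hist1h2bg rose by 1.20 beside Hist1h2ae at -0.11, and Hist3h2a by 1.13 beside the pseudogene Hist3h2bb-ps at 0.14, neither of which passed.

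**Figure D4:**
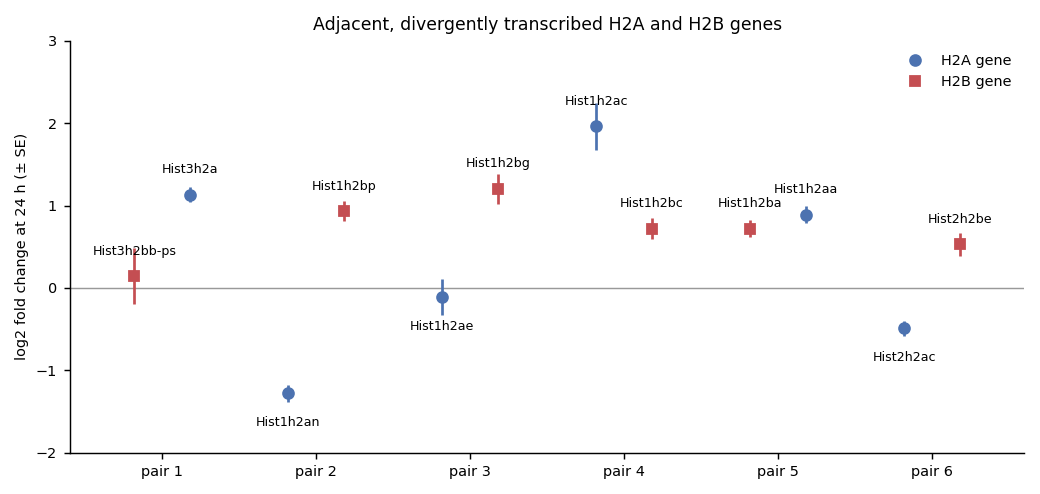
Log2 fold change of hyperoxia over normoxia at 24 h (± SE, 4 arrays a group) for 6 pairs of adjacent H2A and H2B genes transcribed away from each other. Circles are H2A genes and squares H2B genes. In pairs 2 and 6 the H2A gene lies below 0 (-1.28 and -0.49) and the H2B gene above it (0.93 and 0.53).

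The stretch between such partners is shown for 1 pair that moved apart and 1 that moved together. RefSeq (GRCm38.p6) gave a promoter window, 250 bases before to 50 bases after the start, for 37 of the 43 members. Searched on both strands, CCAAT was present in 31 of these (83.8%, against 37.9% of 27025 promoters), TATAAA in 22 (59.5% against 14.2%) and the octamer ATTTGCAT in 12 (32.4% against 1.75%). CCAAT was found in all 14 H2A, 9 H2B and 6 H3 windows and in 2 of 8 H4 windows, and the octamer in 7 H2A and 5 H2B windows. Of the 18 windows of members that fell at 24 h, 4 held the octamer, and of the 10 of members that rose, 6 did. None of the 6 H3 and 8 H4 windows held the octamer, so these shares are tied to histone type. A link between octamer and direction was not tested. A match is a description of these letters and not a bound site. The Hist1h2an window (chr13:21787199-21787498, minus strand) reaches to Hist1h2bp, and the Hist1h2aa window (chr13:23934187-23934486, plus strand) lies on the side of Hist1h2ba; capitals mark the 3 motifs on either strand.
Hist1h2an: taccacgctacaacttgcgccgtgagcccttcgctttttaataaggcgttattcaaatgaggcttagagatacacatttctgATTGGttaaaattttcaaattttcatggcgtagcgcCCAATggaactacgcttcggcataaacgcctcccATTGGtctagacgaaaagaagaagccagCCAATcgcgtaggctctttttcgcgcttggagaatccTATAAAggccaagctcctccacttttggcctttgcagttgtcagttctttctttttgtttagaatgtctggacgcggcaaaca
Hist1h2aa: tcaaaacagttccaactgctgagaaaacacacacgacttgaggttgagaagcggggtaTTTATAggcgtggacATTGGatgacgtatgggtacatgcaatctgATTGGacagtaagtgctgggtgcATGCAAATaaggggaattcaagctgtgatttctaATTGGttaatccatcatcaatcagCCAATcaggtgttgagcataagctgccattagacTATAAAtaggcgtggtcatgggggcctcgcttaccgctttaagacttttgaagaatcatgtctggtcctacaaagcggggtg

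At 6 h the same comparison gave 2 members lower, Hist1h2ag and Hist1h2an, and none higher (limma, adjusted p below 0.05; 15 members had an unadjusted p below 0.05). That is 4.65% and 0% of the members, against 0.0905% of all genes lower and 0.236% higher. Hist1h2ag read 6.92, 6.98, 6.92 and 6.87 in normoxia and 6.33, 6.36, 6.45 and 6.38 in hyperoxia. It fell by 0.54 ± 0.09 (SE) (adjusted p = 0.0126), and the groups did not overlap. Hist1h2an read 6.45, 6.64, 6.50 and 6.48 in normoxia and 5.84, 5.94, 6.03 and 5.98 in hyperoxia, a fall of 0.57 ± 0.10 (adjusted p = 0.0237). These arrays were apart as well, but without any 1 of the 4 normoxia arrays or hyperoxia arrays 1, 2 and 4 of 6 h the adjusted p was 0.0562 to 0.0896. It was 0.0587 with the replicate number as a block and 0.0508 with the 8 arrays of 6 h alone.

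The other H2A probes of the near-identical set lay on the same side at 6 h, with differences of -0.44 for Hist1h2ah (adjusted p = 0.0582), -0.38 for Hist1h2af and Hist1h2ak, -0.37 for Hist2h2ac and -0.30 for Hist2h2aa2, none of which passed. Hist1h2ah did pass under 8 of the alternatives, Hist1h2af and Hist1h2ak under 5 each and Hist2h2ac under 3. The second probe of Hist1h2ak, at the start of the transcript, stood at -0.70 ± 0.12 at 6 h (limma on every probe singly, adjusted p = 0.021). The interaction for that second probe was -1.13 (adjusted p = 5.47e-04). Hist1h2ah read 7.24, 7.41, 7.29 and 7.19 in normoxia and 6.77, 6.80, 6.90 and 6.88 in hyperoxia without overlap. Over all 43 members, every hyperoxia array was below every normoxia array in 16 and above in none, where 2.00% and 2.31% of all genes did so. The median difference was -0.18, against 0.01 over all genes tested. Because several H2A and H4 probes share sequence, these 16 are not independent.

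Among the H2B genes named above, Hist2h2bb read -0.25, -0.42, -0.29 and -0.35 in normoxia and -0.88, -1.08, -0.74 and -0.81 in hyperoxia at 6 h. Its difference of -0.55 ± 0.14 did not pass (adjusted p = 0.148), although the arrays were apart and it passed under 2 of the alternatives. Hist3h2ba read -4.37, -4.68, -3.93 and -4.12 and -4.06, -4.52, -3.65 and -4.87, Hist1h2bg -4.03, -4.12, -4.08 and -4.23 and -4.17, -4.25, -3.90 and -4.35, and Hist1h2bc 4.02, 4.15, 3.92 and 3.94 and 4.02, 3.84, 4.16 and 3.60, in normoxia and hyperoxia. All 3 overlapped. Of the other H2A genes, Hist1h2ac, higher at 24 h, read -7.23, -5.81, -5.80 and -5.67 in normoxia and -6.33, -6.50, -6.54 and -6.58 in hyperoxia, where no array was well above background. Hist3h2a, which rose at 24 h, read 1.82, 1.78, 1.72 and 1.66 and 1.85, 1.56, 1.88 and 1.52, and Hist2h2ab, which fell, -5.27, -5.03, -4.97 and -5.78 and -5.32, -5.10, -4.89 and -5.58. None of these 3 separated the groups.

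Among the H3 genes at 6 h, Hist1h3g read -2.03, -1.63, -1.84 and -1.76 in normoxia and -2.50, -2.22, -2.27 and -2.25 in hyperoxia, and Hist2h3b 0.93, 1.12, 1.13 and 0.99 and 0.57, 0.73, 0.74 and 0.87. The hyperoxia arrays of both were lower, yet the differences of -0.49 and -0.31 did not pass (adjusted p = 0.181 and 0.537). That of Hist1h3g passed under 2 of the alternatives. Hist1h3a read -2.69, -2.49, -2.60 and -2.37 and -2.71, -2.85, -2.48 and -2.85, and Hist1h3d 5.34, 5.41, 5.36 and 5.41 and 5.29, 5.31, 5.43 and 5.44, both with overlap.

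The H4 genes, so uniform at 24 h, differed little at 6 h. Hist1h4d read 4.30, 4.39, 4.28 and 4.21 in normoxia and 4.08, 4.08, 4.20 and 4.27 in hyperoxia, and Hist1h4j 0.92, 1.09, 1.06 and 0.89 and 0.73, 0.73, 0.84 and 0.93. Hist4h4 read 2.86, 2.93, 3.05 and 2.99 and 2.73, 2.60, 2.75 and 2.92, and Hist1h4k 5.47, 5.57, 5.59 and 5.51 and 5.32, 5.24, 5.40 and 5.41. The groups were apart in Hist1h4k, as they were in Hist1h4m (-0.30) and Hist2h4 (-0.18), and overlapped in the other 6. Over the 9 H4 genes the differences lay between -0.30 and 0.11 with none called (limma; 2 had an unadjusted p below 0.05).

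The hyperoxia effect itself differed between the times in 21 members. It was lower at 24 h than at 6 h in 11 and higher in 10 (interaction term in limma, adjusted p below 0.05), against 5.64% and 6.64% of all genes. Among the H4 genes 6 of 9 passed, all lower, from -0.85 for Hist1h4c to -1.21 for Hist1h4d. Among the H2B genes Hist2h2bb was lower (-1.69 ± 0.19) and 6 were higher, with Hist3h2ba at 2.77 ± 0.55 and Hist1h2bg at 1.26 ± 0.25. Among the H2A genes 3 were lower (Hist1h2ag at -1.15, Hist1h2an at -0.71 and Hist1h2ab at -0.70) and 4 higher (Hist1h2ac at 2.32, Hist3h2a at 1.18, Hist1h2aa at 0.80 and Hist2h2aa1 at 0.69). Of the H3 genes, Hist1h3g (-0.70) passed. Without Hist1h2ac and Hist1h2bq, 11 of 41 were lower and 9 higher. With normexp the calls of Hist1h3g (-0.37, adjusted p = 0.0603) and Hist1h2bp (0.31, 0.0901) were lost, and Hist3h2ba, Hist1h2ac and Hist1h2bg shrank to 0.62, 0.73 and 0.53. With the mean over probes the Hist2h2bb call was lost (-1.19, 0.0523) and Hist4h4 stood at -0.67. Hist1h3c, Hist1h3d and Hist2h3b passed under 5, 5 and 6 of the alternatives. The Hist1h4c call was lost without hyperoxia array 4 of 6 h, normoxia array 1 of 24 h or hyperoxia array 2 of 24 h (-0.77 to -0.78, adjusted p from 0.0509 to 0.0542).

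The effects at the 2 times share no arrays, but the comparisons across time share arrays with both, so each is given by its own values. From 6 h to 24 h in normoxia, 6 members fell and 12 rose, or 14% and 27.9%, against 23.5% and 20.6% of all genes. No H2A gene fell (limma, adjusted p below 0.05; 4 of 14 had an unadjusted p below 0.05, all higher), although Hist1h2ae was lower on every 24 h array (-0.47, adjusted p = 0.0962) and passed under 4 of the alternatives. The bright H2A genes stayed near their level, as with Hist1h2ag (0.05 ± 0.09) and Hist1h2ah (0.02 ± 0.09). Hist1h2bc rose by 0.99 ± 0.13, Hist3h2a by 0.60 ± 0.09, Hist2h2aa1 by 0.99 and Hist2h3c2, whose probe is of uncertain identity, by 1.39. Hist3h2ba fell by 1.86 ± 0.39, a value resting on 1 of 4 arrays above background at 24 h and lost with normexp background correction (adjusted p = 0.996). Scaling arrays to their median in place of the 75th percentile moved the median of all genes by 0.21 in this comparison and gave 2 lower and 19 higher members. The share of all genes called under that scaling is not given, so these counts cannot be set against it. The summed type II markers were 5.91 to 6.21 at 6 h and 5.30 to 5.49 at 24 h in normoxia, and the fibroblast markers 9.82 to 10.06 and 10.60 to 10.80, a shift whose part here was not tested.

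In hyperoxia, 18 members fell and 17 rose from 6 h to 24 h (27.3% and 25.0% of all genes). The H4 genes again moved most alike: 7 of 9 fell, by up to 1.37 in Hist4h4 (-0.61 for the mean of its probes), while Hist1h4h and Hist1h4i rose by 0.33 and 0.23. The Hist1h4h call was lost without 1 of hyperoxia arrays 2, 3 and 4 of 6 h and 2 and 3 of 24 h (adjusted p from 0.0524 to 0.0832), and that of Hist1h4i without 1 of arrays 1, 2 and 3 of 6 h and 3 and 4 of 24 h (0.0522 to 0.111). The fall of 0.35 in Hist1h4m was lost without 1 of arrays 3 and 4 of 6 h and 1, 2 and 3 of 24 h (0.0569 to 0.0853), and with normexp (0.445) or median scaling (0.402). Of the 12 H2B genes 8 rose and Hist2h2bb fell by 1.69 ± 0.14. Hist1h2ac was at least 6.18-fold higher at 24 h than at 6 h (fitted adjusted p = 5.47e-07), a bound because no 6 h array was well above background and a description because it passed the filter only through the 24 h arrays. Without it and Hist1h2bq, 18 of 41 fell and 15 rose. Hist3h2a rose by 1.78 ± 0.09 and Hist1h2bc by 1.81 ± 0.13, more than the rises of 0.60 and 0.99 in normoxia by the interaction test above.

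Genes that serve or accompany the core histones were read from 6 lists, put together by what the genes are known to do. For comparison, 12.8% of all genes tested were lower and 15.5% higher at 24 h, and 0.0905% and 0.236% at 6 h. Of 30 S phase and G1/S genes, 29 fell at 24 h and none rose, with a median of -1.29; the largest falls were in Ccne2 (-3.07 ± 0.39) and Ccna2 (-3.00 ± 0.14), the cyclins that drive entry into and passage through S phase, and Cdc6 (-2.49 ± 0.11), which loads the replicative helicase. Of 22 histone chaperones and deposition factors, 14 fell and none rose, with a median of -0.38. The chaperone Asf1b (-1.80 ± 0.09) and Chaf1b (-1.70 ± 0.10) and Chaf1a (-1.53 ± 0.11), subunits of the factor that places H3 and H4 on new DNA, changed most. At 6 h no gene of either list passed (limma, adjusted p below 0.05), with medians of -0.00 and -0.01.

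The genes that transcribe histone genes and cut their mRNAs changed by small amounts: 7 of 17 fell, where 12.8% of all genes did, and Lsm10 rose by 0.21 ± 0.06. Their median was -0.12, and no difference lay below -0.42. Cpsf2 (-0.42 ± 0.09) and Casp8ap2 (-0.39 ± 0.11), which act in 3′ end cutting and histone gene transcription, and Eri1 (-0.39 ± 0.08), a nuclease of the stem-loop, fell most. Among 9 core histone genes outside the clusters, whose mRNAs carry poly(A) tails in most cases, 3 fell and 1 rose. Cenpa, the centromeric H3, fell by 1.71 ± 0.15, H2afz by 0.70 ± 0.07 and H2afx by 0.69 ± 0.11. H3f3b, which encodes the replacement histone H3.3, rose by 0.33 ± 0.06.

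The linker histone genes split as the core genes did, with 4 of 10 lower and 3 higher at 24 h. Hist1h1b fell by 3.38 ± 0.13, while Hist1h1d rose by 1.97 ± 0.40 and Hist1h1c by 1.64 ± 0.09. Hist1h1b and Hist1h1a, named here after their values were seen, had fallen at 6 h too, by -1.01 and -0.87 on the log2 scale (adjusted p = 0.00212 and 5.29e-04). Of 10 CDK inhibitor and p53 feedback genes, 3 rose and 2 fell at 24 h. Mdm2 (1.91 ± 0.07), Cdkn1a (1.84 ± 0.14) and Ccng1 (1.48 ± 0.09) were higher, and they were the 3 of the list that had risen at 6 h, by 1.05, 1.11 and 0.51.

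**Figure D5:**
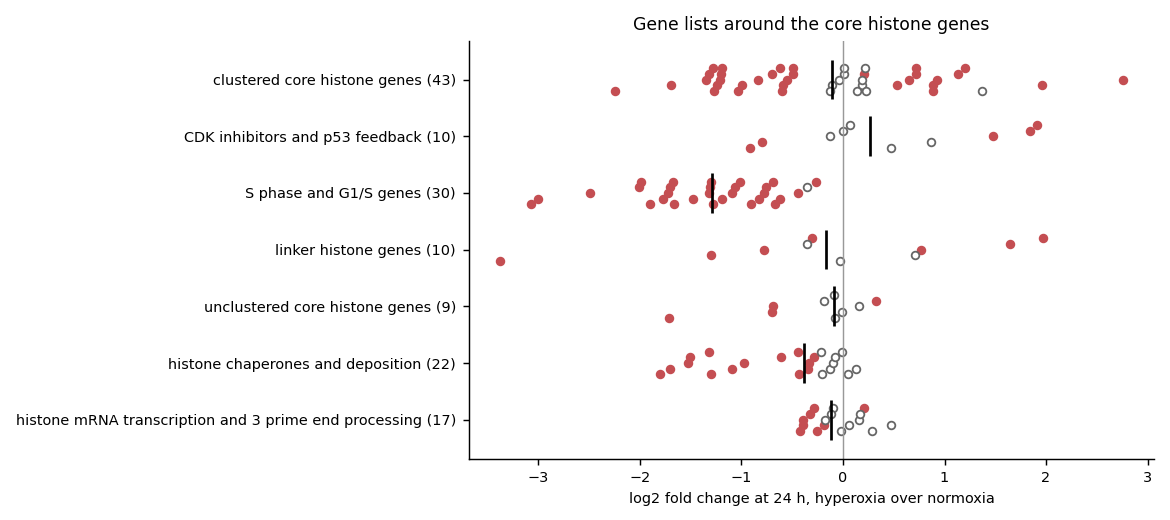
Log2 fold change of hyperoxia over normoxia at 24 h for the genes tested in 6 related lists and the 43 core histone genes (number of genes in brackets). Red points have an adjusted p below 0.05, open points do not, and black bars are medians. The S phase and G1/S genes all lie below 0 with a median of -1.29, while the core histone genes spread from -2.25 to 2.76.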

How the data were processed

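RNA of 16 samples was labelled with Cy3 and hybridised to 1-colour Agilent arrays, with 4 samples in each of 4 groups. The deposited intensity values are spot signals from Agilent Feature Extraction 10.7.3.1, background-subtracted and processed per the file headers, with no normalization between arrays. The series value table deposited by the authors holds log2 values of the same arrays for 43964 probes, which correlated with the log2 processed signal at 0.997 to 1.000; it served as an alternative. Probe names, sequences and mm9 positions are those of the array annotation in the files, and gene names were matched to RefSeq (41 members by accession, 2 by older symbol).

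Control spots and spots marked as outliers (106 to 200 an array) were left out, spots of a probe were averaged, and log2 processed signal was scaled by the 75th percentile of each array, which was 556 to 1021. A gene was read by its brightest probe and entered the test when at least 3 of the 4 arrays of some group had it well above background, which left 25419 genes. One mean per group was fitted over all 16 arrays with limma 3.58.1 (lmFit and eBayes; R 4.3.3), with p-values adjusted over all genes by Benjamini and Hochberg. The steps were checked on simulated data. Python 3.11.15 with pandas 2.3.3 and matplotlib 3.10.9 made the counts and plots. The number of arrays limits the precision.

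The members and lists were chosen with earlier results of these data known. Array values are given for up to 3 falls and 2 rises at 24 h per type, calls at 6 h and the brightest member of each type; of each other list, up to 3 genes that changed most. Replicate numbers equal slide columns. At 24 h the same-numbered samples deviated together (correlations of 0.244 to 0.344). At 6 h numbers 1, 2 and 3 did so too (0.251, 0.254 and 0.354), while number 4 was at 0.086. A pairing of samples and an effect of the slide column cannot be told apart here. The alternatives were normexp background, quantile and median scaling, the authors' table, other filters and probe choices, the replicate block, fits of 8 arrays, array weights, a 2-fold limit and leaving out each array.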

Additional observations from a re-analysis of the deposited data

Results flagged for a closer look

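In 2 of 72 sets of 4 arrays examined, 1 array stood far from the other 3 of its group; chance alone gives this in about 1 of 20 groups. Hist1h2ac was at -7.23 on array 1 of normoxia at 6 h, where the other 3 arrays were at -5.81 to -5.67, a gap of 0.912 of the group's range. Hist2h2bb was at -2.42 on array 4 of hyperoxia at 24 h, where the other 3 were at -2.64 to -2.62, a gap of 0.902 of a narrow range.

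In 21 members the difference between hyperoxia and normoxia was not the same at 24 h as at 6 h, by the interaction term in limma with an adjusted p below 0.05. It was lower at 24 h in Hist2h2bb (-1.69), Hist1h4d (-1.21), Hist1h2ag (-1.15), Hist1h4j (-1.13), Hist4h4 (-1.06), Hist1h4k (-1.01), Hist2h4 (-1.01), Hist1h4c (-0.85), Hist1h2an (-0.71), Hist1h2ab (-0.70) and Hist1h3g (-0.70). Among these, 6 are H4 genes. It was higher at 24 h in Hist3h2ba (2.77), Hist1h2ac (2.32), Hist1h2bg (1.26), Hist3h2a (1.18), Hist1h2bp (0.89), Hist1h2bm (0.87), Hist1h2ba (0.84), Hist1h2bc (0.82), Hist1h2aa (0.80) and Hist2h2aa1 (0.69). All 10 of these encode H2A or H2B. Each time was on its own slide, so this difference cannot be told apart from one between slides.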

How the results depend on the processing

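Of the 32 members called at 24 h, 30 kept their call under every alternative that gave them a value, the 2-fold limit aside; Hist1h3a and Hist2h2ab did not. The 2 lower calls at 6 h moved most: 4 with normexp background, 6 with quantile normalization, 6 with the authors' value table, 8 with array weights, 1 with the replicate block, 1 with only 8 arrays, and 1 to 4 when single arrays were left out. Median scaling gave 2 lower and 19 higher members from 6 h to 24 h in normoxia. With calls also at least 2-fold, the counts of lower and higher members were 0 and 0 at 6 h and 11 and 4 at 24 h. They were 1 and 2 between the times in normoxia, 9 and 10 in hyperoxia, and 7 and 4 for the interaction. The share of all genes called is given only for the fit described above and for no alternative. Counts of members under an alternative, the 2-fold limit included, thus cannot be set against the array as a whole. With the replicate block within each time, 20 members were lower and 13 higher at 24 h, the added member being Hist1h2bq. For the interaction the block within time added Hist2h2ab (adjusted p = 0.00173) and Hist2h3b (0.0255). The samples numbered 4 did not clearly pair at 6 h, which limits these added calls. In normoxia over time the block within time added Hist1h2ae (0.0485) and Hist1h4k (0.0489), and at 6 h the replicate block ended the Hist1h2an call (0.0587). Over time in normoxia, the sign turned for Hist1h2bp with normexp (0.01) and for Hist1h4i (-0.06) and Hist4h4 (0.05) with the mean over probes; over time in hyperoxia it turned for Hist2h2ab with normexp (0.05). The cause was not tested. Leaving out Hist1h2ac and Hist1h2bq, an alternative chosen after seeing the data, gave 6 lower and 10 higher over time in normoxia. Of 18 calls over time in normoxia 9 were kept throughout, of 35 in hyperoxia 27, and of 21 interaction calls 17. Signal near background limits Hist2h2ab, Hist1h2ac, Hist1h2bq, Hist3h2ba and Hist3h2bb-ps, and shared sequence limits the H2A and H4 probes.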
